A study of Drosophila melanogaster with 14 samples.

Results

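The genes described here are 7 factors that time the passage from larva to pupa and adult in Drosophila melanogaster, namely chinmo, br, Eip93F, Eip74EF, Imp, Syp and lin-28. They were chosen by name and read by their FlyBase IDs from a table of 17807 gene IDs, and all 7 were found. RNA had been sequenced from wing discs, the sacs of larval epithelium from which the adult wing and dorsal thorax develop, dissected from wandering larvae of the third instar kept at 25 °C. The 3 wildtype libraries came from yw larvae, and the 3 nub1 libraries from yw larvae that also carried nub[1], an allele of the POU domain gene nubbin, so the yw background was shared. The labels give nub[1] as the genotype of the larvae with no driver or clone, and give neither the number of discs per library, the sex of the larvae nor whether replicates came from separate crosses, so a p-value here reflects library-to-library spread, which may be technical. Other assays of the series (8 of its 14 samples) were not analysed here.

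chinmo encodes a BTB zinc finger transcription factor that sustains growth and an immature state in larval tissues. As the steroid ecdysone builds up at the end of larval life, early genes such as br and Eip74EF are induced, and br, also a BTB zinc finger gene, marks the commitment to pupal development. Eip93F encodes a factor of the later pupal stage that promotes adult differentiation. In neural stem cells of the fly the RNA-binding proteins Imp and Syp form opposing gradients in time, Imp favouring and Syp repressing chinmo, and let-7 family microRNAs, whose maturation lin-28 blocks in several animals, also act on chinmo mRNA.

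Total counts were 58434785 to 82407049 in the wildtype and 72134981 to 83448836 in the nub1 libraries. Levels are given as CPM, counts per 1000000 counts of a library after scaling by trimmed mean of M-values (TMM). Where 3 values follow a genotype, they are those of its replicates 1, 2 and 3 in that order. The level of nub was 343, 323 and 321 CPM in wildtype and 13.1, 12.2 and 7.38 CPM in nub1 discs. The wing disc markers vg, sd, ap and Antp summed to 1536 to 1554 CPM in wildtype and 1477 to 1561 CPM in nub1 libraries. Within this sum the mean of vg fell from 264 to 218 CPM (edgeR adjusted p = 6.56e-05). That of Antp rose from 132 to 142.5 CPM (edgeR adjusted p = 0.0212), and sd and ap were not called. Over the 9186 tested genes, the median absolute log2 difference between nub1 replicates 1 and 2 was 0.0458, that of nub1 replicate 3 from these 0.0755 and 0.0625, and that between pairs of wildtype libraries 0.0662 to 0.0751.

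Of the 7 genes, 6 had enough counts to be tested. In nub1 discs chinmo rose 3.29-fold in mean CPM, Imp 1.18-fold and Eip74EF 1.16-fold, while br and Syp fell to 0.805 and 0.872 of their wildtype means. Thus 3 rose and 2 fell (edgeR quasi-likelihood test, adjusted p under 0.05), where 24.4% of all tested genes rose and 23.9% fell. Eip93F did not pass and lin-28 was at the detection limit. The groups of libraries did not overlap for 5 of the 6 tested genes, as was the case for 60.0% of all tested genes. In 3 of them nub1 lay above wildtype (29.7% of all tested genes) and in 2 below (30.3%). The change of chinmo was the largest of the 6, 94.7% of tested genes having a smaller absolute log2 fold change, against 58.3% to 83.8% for the others.

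**Figure D1:**
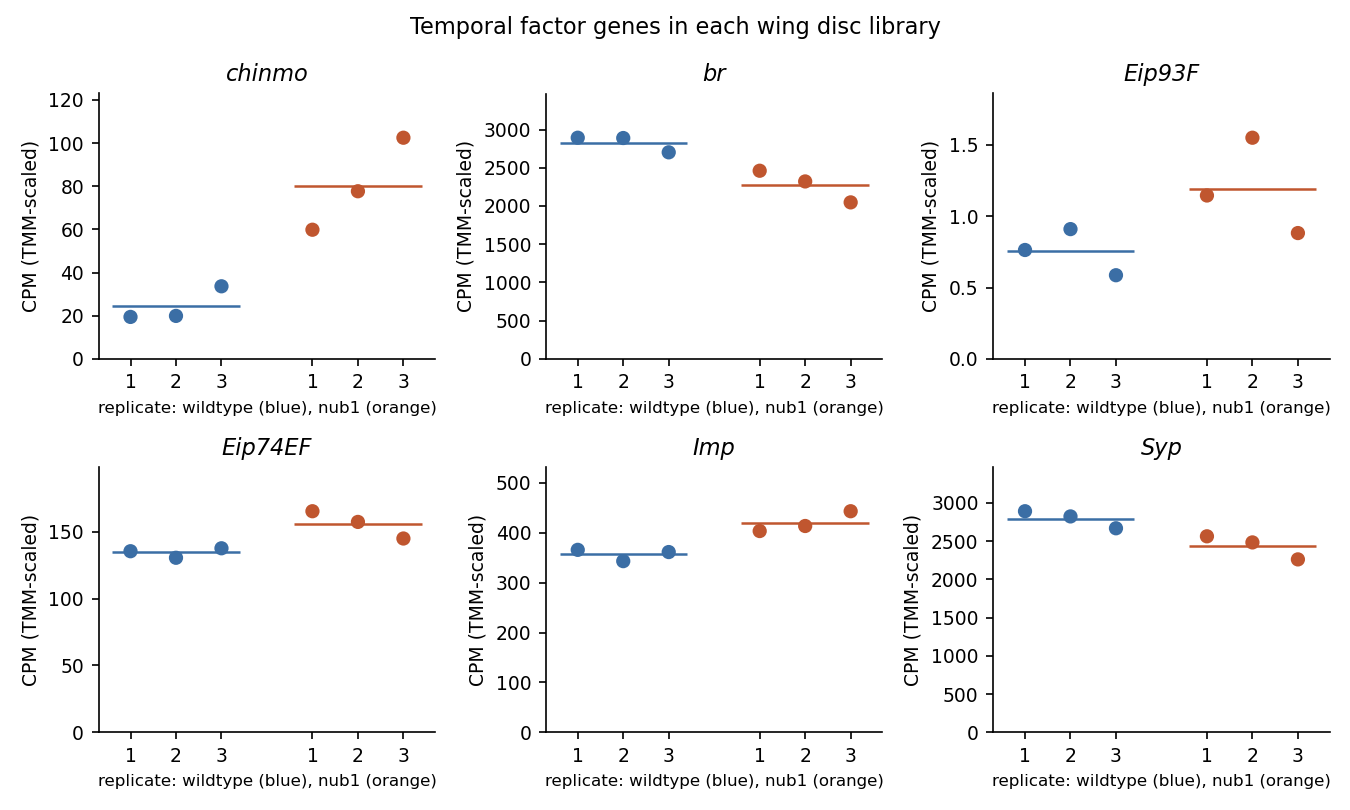
CPM (TMM-scaled, linear axis from 0) of the 6 tested temporal factor genes in each library, wildtype in blue and nub1 in orange, with horizontal lines at the group means. For chinmo, Imp and Eip74EF every nub1 point lies above every wildtype point, for br and Syp below, and for Eip93F the groups overlap.

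chinmo (FBgn0086758, dm6 chromosome arm 2L, 1651258 to 1704682) had 1197, 1138 and 2754 counts in wildtype and 4338, 5964 and 8719 counts in nub1 discs. These were 19.4, 19.9 and 33.6 CPM in wildtype and 59.9, 77.7 and 102.5 CPM in nub1 discs, or 24.3 ± 8.06 and 80.0 ± 21.4 CPM (SD, n = 3). Every nub1 library thus stood above every wildtype library, and within each genotype the library numbered 3 held the most chinmo. The log2 fold change was 1.71 ± 0.34 (SE; 95% interval 0.79 to 2.62; edgeR adjusted p = 0.0163), and 252 of the tested genes had a larger one. The replicates of chinmo spread widely. Their range was 1.73-fold in wildtype and 1.71-fold in nub1 discs, and the standard deviation of log2 CPM was larger than that of 94.1% of tested genes in wildtype and 92.6% in nub1. Its edgeR call depended on single libraries. The adjusted p was 0.0580 without wildtype replicate 1, 0.0503 without wildtype replicate 2 and 0.0511 without nub1 replicate 2, while the log2 fold change stayed between 1.48 and 2.03 with any single library left out. Without both libraries numbered 3 it was 1.81 ± 0.16 (edgeR adjusted p = 0.00242). In bulk tissue, more cells with chinmo mRNA and more of it per cell cannot be told apart, and the same holds for every gene below.

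br (FBgn0283451, chromosome X, 1575132 to 1664869) fell. Its level was 2893, 2889 and 2702 CPM in wildtype and 2461, 2321 and 2047 CPM in nub1 discs. The groups did not overlap, and nub1 replicate 3, the library with the most chinmo, had the least br. Group values were 2828 ± 109 and 2276 ± 210 CPM (SD, n = 3), and the fitted log2 fold change came to -0.31 ± 0.07 (SE; 95% interval -0.47 to -0.16; edgeR adjusted p = 0.00607). The call was lost without wildtype replicate 2 (edgeR adjusted p = 0.0530). The gene makes several isoforms that differ in their zinc fingers, 16 RefSeq transcripts in all, and counts per gene do not separate them. Mur2B is annotated across the whole br locus, but its counts came to 0.0300% of those of br.

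Eip74EF (FBgn0000567, 3L, 17558672 to 17619325), an ETS domain gene of the early ecdysone response, moved against br. It stood at 135, 130.5 and 138 CPM in wildtype and at 165, 157 and 145 CPM in nub1 discs. The groups did not overlap, but here nub1 replicate 3 was the library nearest to wildtype. With 134.5 ± 3.67 and 156 ± 10.3 CPM (SD, n = 3), the change was 0.21 ± 0.05 on the log2 scale (SE; 95% interval 0.10 to 0.32; edgeR adjusted p = 0.00608), and the call was kept without any single library. The 2 early genes therefore changed in opposite directions in the same discs. The alternative promoters of Eip74EF, which respond to different hormone doses, are not separated in these counts.

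Eip93F (FBgn0264490, 3R, 21949114 to 22014539) was nearly silent in both genotypes. Its counts were 47, 52 and 48 in wildtype and 83, 119 and 75 in nub1 discs. In CPM these were 0.763, 0.909 and 0.586 against 1.145, 1.55 and 0.882, so nub1 replicate 3 lay below wildtype replicate 2 and the groups overlapped. The exact Poisson 95% intervals, which cover counting error only, were 0.679 to 1.19 CPM for wildtype replicate 2 and 0.693 to 1.105 CPM for nub1 replicate 3. The log2 fold change was 0.68 ± 0.25 (SE; 95% interval 0.11 to 1.24) and the edgeR adjusted p of 0.050001 did not pass the threshold of 0.05. It passed with RLE scaling, upper quartile scaling, library sizes only or no filter on low counts (edgeR adjusted p = 0.0280 to 0.0486), but not with DESeq2 (0.0598) or limma-voom (0.0741). It also passed without nub1 replicate 3 (edgeR adjusted p = 0.0144) and without both libraries numbered 3 (0.0327), and did not without any other single library (0.0526 to 0.185).

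**Figure D2:**
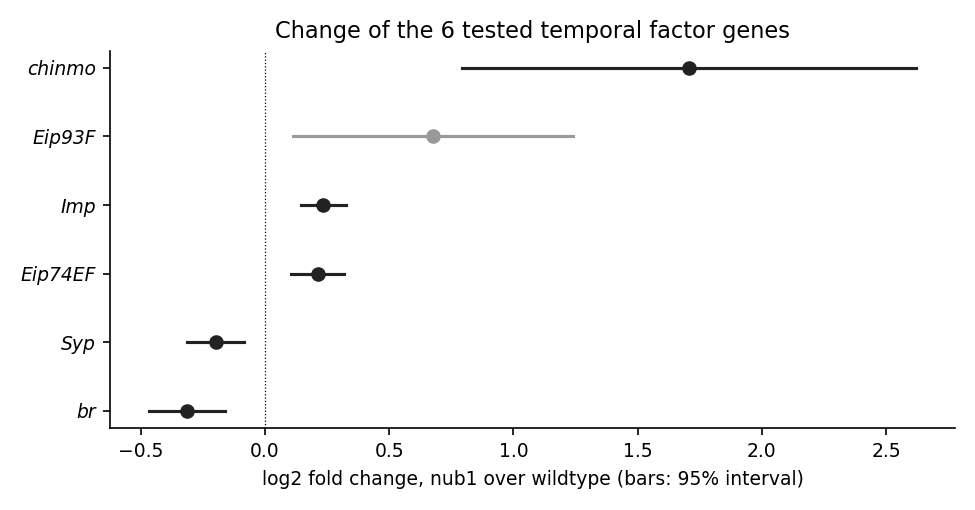
Log2 fold change of nub1 over wildtype for the 6 tested temporal factor genes, with 95% intervals from the edgeR fit; black genes passed the threshold and the grey gene, Eip93F, did not. The estimate for chinmo, 1.71, lies far above the others that passed, which range from -0.31 to 0.24.

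Imp (FBgn0285926, chromosome X, 10787869 to 10824277), an mRNA-binding protein gene, rose. Its level was 366, 343 and 361 CPM in wildtype and 403, 413 and 443 CPM in nub1 discs, with no overlap. Group values were 357 ± 12.0 and 420 ± 20.6 CPM (SD, n = 3), and the standard deviation of log2 CPM exceeded that of 41.2% of tested genes in wildtype and 61.5% in nub1. The fitted log2 fold change was 0.24 ± 0.04 (SE; 95% interval 0.14 to 0.33; edgeR adjusted p = 0.00151). This call held without any single library, with edgeR adjusted p values of at most 0.00772.

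Syp (FBgn0038826, 3R, 20756729 to 20810726), which encodes the RNA-binding protein Syncrip, fell. It had 2892, 2824 and 2669 CPM in wildtype and 2564, 2484 and 2262 CPM in nub1 discs, and the groups did not overlap. The means were 2795 ± 114 and 2437 ± 156.5 CPM (SD, n = 3), which the fit put at a log2 fold change of -0.20 ± 0.05 (SE; 95% interval -0.31 to -0.08; edgeR adjusted p = 0.0115). It was not called without wildtype replicate 1 (edgeR adjusted p = 0.0510) or 2 (0.0659). CG31195 lies within the Syp locus and had counts equal to 16.3% of those of Syp. It fell too, from 437 to 448.5 CPM in wildtype to 396.5 to 408 CPM in nub1 libraries (log2 fold change -0.14 ± 0.03; edgeR adjusted p = 0.00193). No source used here says how reads of the 2 genes were divided.

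lin-28 (FBgn0035626, 3L, 5654681 to 5657384) had 0, 1 and 0 counts in wildtype and 1, 1 and 0 counts in nub1 discs. It was not tested, and a difference was not detectable at this depth. A limit of 3 counts per library corresponds to 0.0353 to 0.0525 CPM.

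Ratios of counts within a library do not depend on the scaling between libraries, and since gene lengths differ they are compared only between libraries. For each chinmo count there were 149, 145 and 80.4 br counts in wildtype, but 41.1, 29.9 and 20.0 in nub1 discs. On the log2 scale the chinmo to br ratio was -6.91 ± 0.50 in wildtype and -4.86 ± 0.52 in nub1 discs (SD, n = 3), a 4.14-fold difference in the ratio with no overlap between groups. A two-sided exact permutation test gave p = 0.1, which is the smallest value that 3 libraries against 3 allow. For each Imp count there were 7.91, 8.23 and 7.39 Syp counts in wildtype and 6.36, 6.01 and 5.11 in nub1 discs. The Imp to Syp ratio was thus 1.35-fold higher in nub1 discs, again without overlap (two-sided exact permutation p = 0.1, the smallest possible). The chinmo to Eip93F ratio, with log2 values of 4.67, 4.45 and 5.84 in wildtype and 5.71, 5.65 and 6.86 in nub1 discs, overlapped between groups (two-sided exact permutation p = 0.3).

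**Figure D3:**
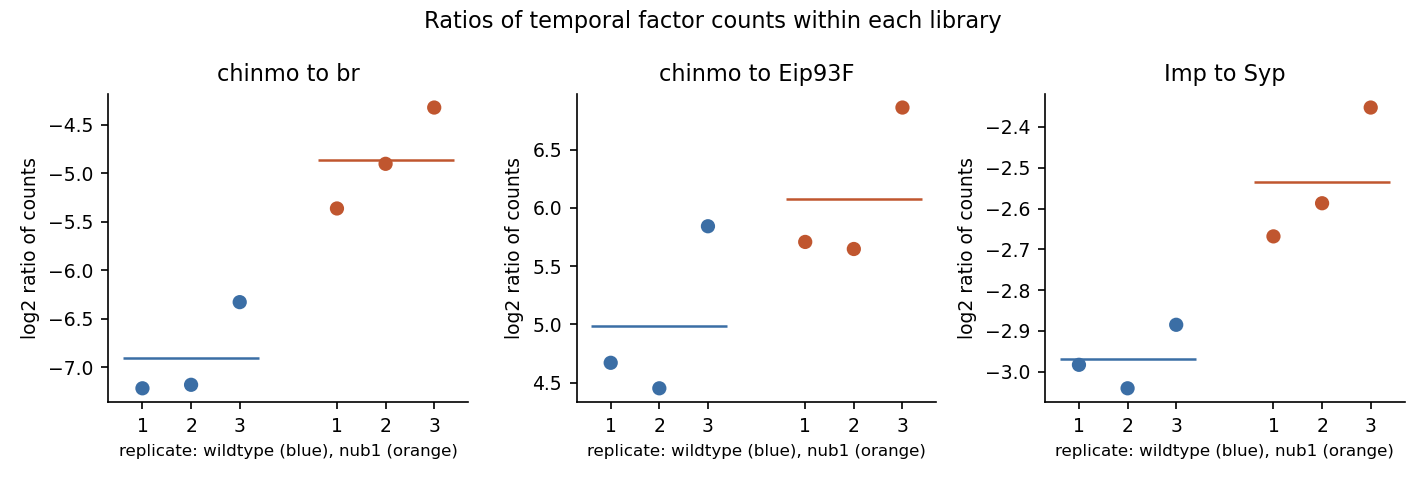
Log2 ratios of raw counts within each library for chinmo to br, chinmo to Eip93F and Imp to Syp, wildtype in blue and nub1 in orange, with lines at the group means. The axes do not start at 0. The groups are apart for chinmo to br and Imp to Syp, and wildtype replicate 3 reaches the nub1 values for chinmo to Eip93F.

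Differences between replicates of the same genotype went the same way in several of these genes. Ordered by CPM, the 6 libraries fell into exactly the reverse order for br and for Syp as for chinmo. Wildtype replicates 1 and 2 lay close, at 19.4 and 19.9 CPM for chinmo and 2893 and 2889 CPM for br, so their places in these orders are not firm. Among all tested genes, 211 others (2.30%) shared the order of chinmo and 277 (3.02%) had its reverse. Wildtype replicate 3 had the most chinmo and the least br and Syp of its group, as did nub1 replicate 3 of the nub1 group. The same 2 libraries also had the least Eip93F of their groups, although Eip93F was on average higher in nub1 discs. All libraries enter both the group difference and these orders, which are given as a description.

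Among tested genes averaging 5 CPM or more, those whose centred log2 CPM lay closest to chinmo over the 6 libraries were Aldh, CG11353 and mol, with root mean square differences of 0.0689, 0.0798 and 0.09565. Aldh ran from 9.03, 8.27 and 14.1 CPM in wildtype to 24.1, 31.7 and 41.8 CPM in nub1 discs, thus repeating the high replicate 3 in both groups. Closest to br were CadN, sick and Cln7 (0.0130, 0.01535 and 0.0163), CadN with 97.7, 96.7 and 91.0 CPM in wildtype and 81.6, 76.5 and 67.8 CPM in nub1 discs. Nearest to Eip93F were LManII, CG9312 and CG43341 (0.176, 0.188 and 0.225). Eip93F had only 47 to 119 counts per library, so counting error enters these distances and they are not comparable with those of chinmo and br. These 9 genes were picked from 6795 for their likeness, so their own changes add no support.

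Hormone reception and turnover came next. Of 7 genes for the ecdysone receptor and hormone handling, all tested, 2 rose and 3 fell, with a median log2 fold change of -0.11 beside -0.003 over all tested genes. Of all tested genes, 24.4% rose and 23.9% fell. EcR, the hormone receptor gene, rose from 178, 170 and 195 CPM in wildtype to 220, 224.5 and 247 CPM in nub1 discs (log2 fold change 0.35 ± 0.06; edgeR adjusted p = 0.00311). The coactivator gene tai fell (-0.16 ± 0.04). Among enzymes, shd, which makes the active hormone, fell from 2.32 to 2.94 CPM in wildtype to 0.823 to 1.45 CPM in nub1 libraries (-1.10 ± 0.21), and dib, an enzyme of hormone synthesis, rose from a very low level (1.24 ± 0.15). Cyp18a1, which inactivates the hormone, was at 3.63 to 6.58 CPM in wildtype and 1.45 to 2.61 CPM in nub1 libraries (-1.31 ± 0.29; edgeR adjusted p = 0.0112).

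Early and early-late regulators of the ecdysone cascade moved in both directions. Of 15 listed, 13 were found by these symbols and 12 tested, of which 3 rose and 4 fell (median log2 fold change -0.20). Over all tested genes the shares were 24.4% rising and 23.9% falling. The nuclear receptor gene Eip75B fell from 465, 479 and 402 CPM in wildtype to 294.5, 278.5 and 227 CPM in nub1 discs (log2 fold change -0.75 ± 0.12; edgeR adjusted p = 0.00565), and Hr39 (-0.59 ± 0.12) and Hr78 (-0.17 ± 0.03) fell as well. Eip63F-1, a calcium-binding protein gene, rose (0.73 ± 0.17). Of genes picked after their values were seen, ftz-f1, the competence factor of the prepupa, ordered the 6 libraries exactly as chinmo did. It had 8.90, 9.23 and 17.2 CPM in wildtype and 28.2, 32.2 and 40.9 CPM in nub1 discs. For ftz-f1, too, wildtype replicates 1 and 2 lay close. Its log2 fold change was 1.50 ± 0.33 (edgeR adjusted p = 0.0213), which became 0.0653 without wildtype replicate 1, 0.0577 without wildtype replicate 2, 0.0589 without nub1 replicate 2 and 0.0588 without nub1 replicate 3. Hr4 and Blimp-1, both picked in the same way, were at 4.08 and 3.70 CPM in nub1 replicate 3, against at least 96.8 and 67.6 CPM in the other libraries. Neither passed the test with all libraries (edgeR adjusted p = 0.256 and 0.166), and both passed as lower without nub1 replicate 3 (0.0397 and 0.0215). Hr3, also picked after its values were seen, was at 3.46, 1.94 and 2.36 CPM in wildtype and 3.90, 4.43 and 0 CPM in nub1 discs. Without nub1 replicate 3 it was instead called higher (log2 fold change 0.69, edgeR adjusted p = 0.03965).

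Ecdysone-inducible disc effectors were likewise split. Of 11 listed, 10 were tested, 3 rose and 3 fell, with a median log2 fold change of -0.25, where 24.4% of all tested genes rose and 23.9% fell. Leaving out nub1 replicate 3 gave 4 falls, and leaving out any other library gave 1. The cuticle genes Edg91 and Edg78E rose (1.15 ± 0.14 and 0.97 ± 0.30), the latter from levels below 0.5 CPM in every library and with its call lost without wildtype replicate 1 (edgeR adjusted p = 0.0695) or nub1 replicate 2 (0.0777) or 3 (0.0530). ImpL2, a secreted antagonist of insulin-like peptides, rose slightly (0.22 ± 0.04). Besides Cyp18a1, the other 2 that fell were ImpE2 and Sb, a serine protease gene of disc eversion, with log2 fold changes of -1.62 and -0.79 (edgeR adjusted p = 0.0374 and 0.0376). Neither was called when a library other than nub1 replicate 3 was left out, while the log2 fold changes then ranged from -1.81 to -1.53 for ImpE2 and from -0.92 to -0.73 for Sb. The groups of libraries did not overlap for either gene.

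Juvenile hormone is the other hormone of larval timing. Of its 10 listed response genes, 8 were tested, 4 rose and 1 fell, with a median log2 fold change of 0.28. The shares over all tested genes were 24.4% rising and 23.9% falling. The hormone hydrolase genes Jheh1 and Jheh2 rose (0.54 ± 0.05 and 0.27 ± 0.03), as did Chd64 (0.38 ± 0.08) and the chaperone gene Hsp83 (0.28 ± 0.04). Its primary response gene Kr-h1 was the member that fell (-0.17 ± 0.04), and the receptor gene Met was at 36.2 to 38.4 CPM in wildtype and 36.5 to 39.0 CPM in nub1 libraries (log2 fold change 0.01, 95% interval -0.07 to 0.10; edgeR adjusted p = 0.825).

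lncRNA:let7C, the host transcript of the let-7 microRNA cluster, fell. It had 1.72, 2.10 and 1.42 CPM in wildtype and 0.441, 0.560 and 0.153 CPM in nub1 discs. The groups did not overlap, and nub1 replicate 3, highest for chinmo, was lowest for the host transcript (log2 fold change -2.19 ± 0.38; edgeR adjusted p = 0.00241). The mature microRNAs were not measured. ab, a BTB zinc finger gene known as a let-7 target in the fly, rose from 202, 197 and 225 CPM in wildtype to 243, 260 and 293.5 CPM in nub1 discs (0.35 ± 0.08; edgeR adjusted p = 0.0145), a call lost without wildtype replicate 1 (0.0642) or 2 (0.0526). In this list of 12 genes, all tested, 4 rose and 3 fell, with a median of -0.01, where 24.4% of all tested genes rose and 23.9% fell. The microRNA processing gene pasha (-0.28 ± 0.03) and the translational repressor gene brat (-0.15 ± 0.04) were the other 2 that fell. Leaving out any single library gave 1 to 2 rises in place of 4.

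**Figure D4:**
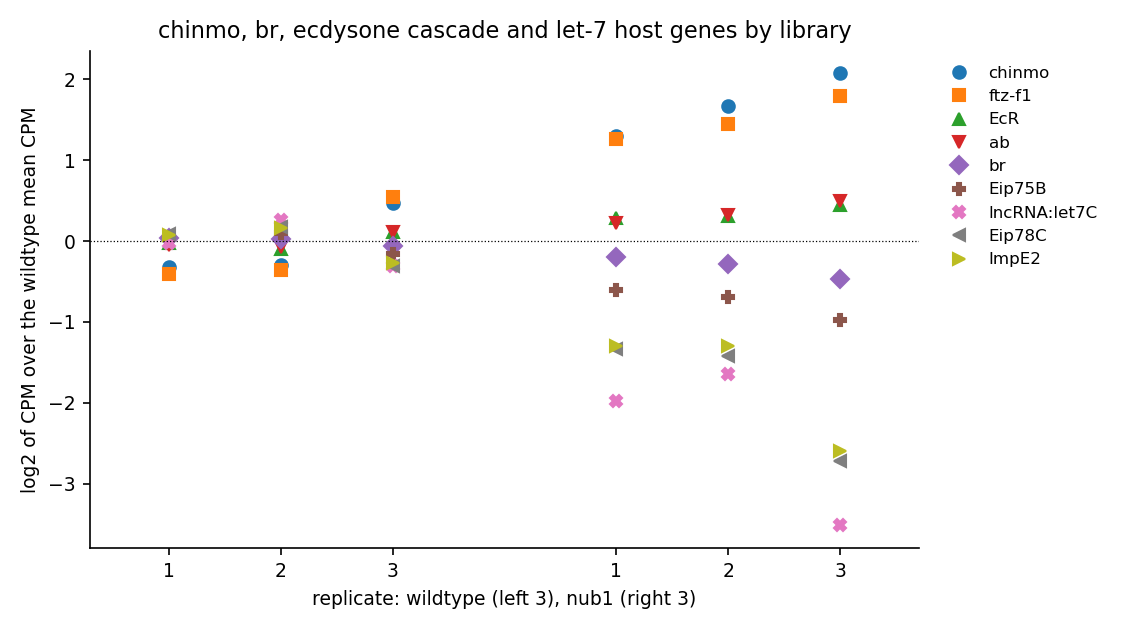
Log2 of CPM over the wildtype mean CPM for chinmo, br, genes of the ecdysone cascade, ab and the let-7 host transcript in each library, the genes beside chinmo and br being picked after their values were seen. In nub1 replicate 3 chinmo and ftz-f1 are highest, and lncRNA:let7C, Eip78C and ImpE2 lowest, of all libraries.

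Of 12 other genes of neural stem cell timing, 8 were tested, 0 rose and 3 fell with edgeR (median log2 fold change -0.17), beside 24.4% and 23.9% of all tested genes. At an unadjusted p under 0.05, 0 rose with edgeR, and DESeq2 and limma-voom called 0 and 0 rises. Without wildtype replicate 2, cas was called higher (edgeR adjusted p = 7.11e-04). Those that fell were nab, also a wing pouch gene, at 94.6 to 104 CPM in wildtype and 20.6 to 25.9 CPM in nub1 libraries, grh (-0.18 ± 0.03) and svp (-0.34 ± 0.08), the last not called without wildtype replicate 1 (0.0660). hb and Kr, the first factors of the embryonic series, were at 0.0649 CPM or less in every library. In the disc damage and regeneration list, 6 of 11 tested genes rose and 2 fell, with a median of 0.55, where 24.4% of all tested genes rose and 23.9% fell. The list was set up because chinmo and br are known to affect the capacity of discs to regenerate. It was chosen with earlier results of these data known, so the count is a description. The rise of Ets21C was not called without wildtype replicate 3 (edgeR adjusted p = 0.0953), nub1 replicate 2 (0.0559) or nub1 replicate 3 (0.0862). Gadd45 rose most clearly, from 11.1 to 12.0 CPM in wildtype to 35.1 to 44.1 CPM in nub1 libraries (1.75 ± 0.09), followed by the cytokine genes upd1 (0.89 ± 0.07) and upd3 (1.28 ± 0.16) and the cell death gene rpr (0.55 ± 0.06). Ilp8, a secreted signal that delays pupation, was picked after its values were seen. It was at 0.0244 to 0.0487 CPM in wildtype and 0.662, 1.225 and 2.68 CPM in nub1 discs (5.39 ± 0.88; edgeR adjusted p = 0.00368). The members that fell were the Wnt ligand gene wg (-0.42 ± 0.07; edgeR adjusted p = 0.00288) and the matrix metalloproteinase gene Mmp1 (-0.49 ± 0.09; edgeR adjusted p = 0.00623).

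Markers of other cells moved with genotype in part, and their part in the changes of chinmo, Imp and Syp was not tested. The genes set apart from the sums were picked after their values were seen. Haemocyte markers, 7 genes, summed to 170 to 233 CPM in wildtype and 397 to 433 CPM in nub1 libraries, 3 rising and 2 falling. Most of that difference lay in the collagen IV genes vkg and Col4a1, which fat body cells also express, and without them the sums overlapped, at 64.2, 34.3 and 45.1 CPM in wildtype and 59.0, 59.4 and 63.5 CPM in nub1 discs, with NimC1 rising and He and srp falling. Tracheal markers, 4 genes, summed to 840 to 891 and 1222 to 1283 CPM, where verm and serp, both genes of chitin modification, rose. Of the other 2, trh, the transcription factor gene of tracheal identity, fell from 83.8 ± 2.48 to 59.6 ± 2.14 CPM (SD, n = 3; edgeR adjusted p = 8.28e-06), and btl was at 14.3 ± 0.786 and 16.1 ± 1.66 CPM and not called. Adult muscle precursor markers, 6 genes, summed to 504 to 559 and 393 to 433 CPM (2 rose, 2 fell). Without Ama, which fell from 309 to 174 CPM, the remaining 5 overlapped, at 229, 233 and 221 CPM in wildtype and 256, 241 and 221 CPM in nub1 discs, with twi and htl rising and Him falling. Neuroblast markers, 5 genes, summed to 45.1 to 46.2 and 60.2 to 60.8 CPM, with insc rising, mira and ase falling, and the sums without insc overlapping, and neuron and glia markers, 6 genes, to 40.6 to 44.0 and 44.6 to 44.8 CPM (2 rose, 3 fell), most of it elav. Of the 5 fat body markers 1 rose and 1 fell (17.9 to 51.9 and 21.6 to 26.5 CPM), and the 6 salivary gland genes were all called lower (7.16 to 8.96 and 1.92 to 2.71 CPM). For Sgs3 among them the groups overlapped, at 0.818 CPM in wildtype replicate 3 and 0.821 CPM in nub1 replicate 2 (edgeR adjusted p = 0.0460). Some marker calls were lost when 1 library was left out. This held for elav in 5 of the 6 such fits, and for He and the salivary gland gene Sgs3 in 4 each. It also held for mira and the wing disc marker Antp in 3 each, and for Him and the fat body gene Fbp1 in 2 each. No marker listed here was at 0 in all libraries.

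br and Imp lie on the X chromosome, and the labels do not give the sex of the larvae. The male-specific RNA lncRNA:roX1 was at 818, 295 and 263 CPM in wildtype and at 471, 500 and 568 CPM in nub1 discs. The groups overlapped, and neither it nor lncRNA:roX2 was called with all libraries, but both were called higher in nub1 discs without wildtype replicate 1 (log2 fold changes 0.89 and 1.05; edgeR adjusted p = 0.00333 and 3.03e-04). Without that library the log2 fold change was -0.29 for br and 0.26 for Imp (edgeR adjusted p = 0.0414 and 0.00318). The remaining listed marker of sex, msl-2, was at 72.3, 49.9 and 46.1 CPM in wildtype and 49.5, 48.15 and 51.7 CPM in nub1 discs. It was not called with all libraries (log2 fold change -0.17; edgeR adjusted p = 0.514), nor when any single library was left out. The part of sex in the changes of br and Imp was not tested.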

How the data were processed

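RNA-seq counts of 6 libraries were used. The authors deposited raw counts per FlyBase gene ID without normalization. The submitters' processing notes name HISAT2, Bowtie2, featureCounts, bcl2fastq, deepTools and the dm6 build, without roles or versions. Per the labels' protocols, a directional RNA kit was used. No source used here gives the strand setting or the annotation release, so overlapping genes may share counts.

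Symbols were found for 17710 of 17807 IDs; the remaining 97 took up 0.687% of all counts. Positions are those of RefSeq Release 6, the assembly of dm6. Low genes were removed with filterByExpr, TMM factors were computed, and genotype was fitted alone in edgeR 4.0.16 (glmQLFit, robust; glmQLFTest) under R 4.3.3. Benjamini-Hochberg adjustment ran over all 9186 genes tested. SE is the log2 fold change divided by the square root of F. Alternatives used limma 3.58.1 (voom) and DESeq2 1.42.0, other scalings and filters, a replicate block and left-out libraries; figures used matplotlib 3.10.9. The code was tested on simulated counts.

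The 7 genes, the 7 gene lists and the 9 marker lists were chosen with earlier results of these data known. Named by rule from each gene list were up to 4 called members with the smallest adjusted p. Also named by rule were the 3 genes of most similar pattern to each of chinmo, br and Eip93F. Other members of the gene lists were picked after their values were seen. These include Kr-h1, Met, ImpE2, Sb, cas, hb, Kr, Ets21C, wg and Mmp1, which are not marked so where they are described. Exon lengths were not used here, so levels of different genes were not compared per length.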

Additional observations from a re-analysis of the deposited data

How the results depend on the processing

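The direction of all 6 tested temporal factor genes was the same under every alternative run. Imp and Eip74EF kept their calls in all 16 alternatives each, and chinmo, br and Syp lost theirs only when a single library was left out. Left-out libraries gave log2 fold changes of 1.48 to 2.03 for chinmo, -0.37 to -0.24 for br, 0.44 to 0.86 for Eip93F and -0.23 to -0.15 for Syp. Eip93F, not called with all libraries, was called with RLE scaling (0.68; edgeR adjusted p = 0.0486), upper quartile scaling (0.69; 0.0450), library sizes only (0.71; 0.0350), no filter on low counts (0.68; 0.0280), the replicate block (0.65; 0.0105) and without both libraries numbered 3 (0.69; 0.0327), and its adjusted p over all alternatives ranged from 0.0105 to 0.185. It could not be tested under the stricter filter (5 CPM or more in 3 libraries).

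Correlations of deviations from the group means were 0.0216, 0.0221 and 0.208 for wildtype and nub1 libraries that share the numbers 1, 2 and 3. Between libraries of different number they ran from -0.158 to 0.134, so the value for number 3 was the largest. The labels do not say whether libraries that share a number were handled together. The replicate block changed no other call of a temporal factor gene (chinmo 1.72 ± 0.08, edgeR adjusted p = 1.25e-04), and it gave 5 called falls in the neural stem cell timing list.

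Among the lists, the stricter filter left 1 rise and 1 fall in hormone handling, 1 rise in early regulators, 1 rise in disc effectors and 3 in the regeneration list. The calls missing there were those of dib, shd, Cyp18a1, Hr38, Eip63F-1, Edg78E, Edg91, Ilp8, Ets21C and upd3. These genes did not reach 5 CPM in 3 libraries and so were not tested under that filter. No filter gave 1 fall in disc effectors and 2 rises in the let-7 list. Without both libraries numbered 3 there was 1 rise in the let-7 list and 5 falls in the neural stem cell timing list. Left-out libraries gave 1 to 4 falls in disc effectors, 1 to 2 rises in the let-7 list and 0 to 1 rise in the neural stem cell timing list. The cause of the other shifts was not tested. The comparison of levels per exon length was not run. Counts limit Eip93F and lin-28 most.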
